A study of Mus musculus with 28 samples.

Results

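Genes of endoplasmic reticulum (ER) folding, ER-associated degradation and ER stress signalling were followed in liver and kidney of db/db mice. The set was a named list of 32 genes, chosen by gene name and not by a threshold on measured values. It was drawn up with earlier results of these data known, so shares of members set against shares of all genes are descriptive only. All 32 were among the 22116 genes with a name in the liver table and the 21797 in the kidney table. By role they were 9 chaperones and their partners, 4 enzymes of disulfide formation, 4 genes of the lectin cycle and protein glycosylation, 8 genes of ER-associated degradation, 6 sensors and signalling factors, and 1 subunit of the translocon. In each tissue 31 passed the filter for testing (1 FPKM or more in 3 or more liver or 4 or more kidney libraries), and Derl3 did not.

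All mice were male db/db animals on the C57BL/KsJ background, which lack a working leptin receptor and become obese and diabetic, so every group, controls included, carried that genotype and no lean group was analysed here. The groups were a combined treatment (semaglutide with high-intensity interval training, HIIT), semaglutide alone, HIIT alone, and sedentary controls. Semaglutide is a peptide drug that activates the receptor for GLP-1, and HIIT was run on a motorized treadmill in 10 bouts per session. Mice were 8 weeks old at the start and were treated for 8 weeks. The sample titles give 0.05 mg/kg of semaglutide and 60 min of exercise, while the protocol gives 30 nmol/kg once daily, a different amount, and which was used was not given. There were 12 liver libraries, 3 per group, and 16 kidney libraries, 4 per group. Since the labels tie no library to a single animal, the p-values reflect only how far these samples vary, and part of that may be technical. Levels are FPKM (fragments mapped to a transcript, scaled by its length and by the library's mapped total), which are scaled per length, so levels of different genes can be set side by side. Read depth is unknown.

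The ER folds proteins that enter it during synthesis, with chaperones, disulfide isomerases and a lectin cycle that reads their sugar chains. When unfolded proteins accumulate, the sensors Ern1 (IRE1), Eif2ak3 (PERK) and Atf6 start the unfolded protein response, which induces chaperone and degradation genes and, if prolonged, the death-associated factor Ddit3 (CHOP). Liver secretes much of the plasma protein, and this response has been studied there in obesity and diabetes.

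Several members are textbook targets of Atf6 and Xbp1 through the ER stress response element (ERSE). RefSeq promoter sequences (GRCm38.p6, 300 bases from 250 before the start) were found for 28 of the 32 members. For 23 members, 30 bases just after the start were also found in a transcript of the gene in the GENCODE annotation. The other windows had no such match, so distances to the start are less certain there. The element, searched on both strands as CCAAT and CCACG with 9 bases of any kind between them, was present in the promoters of 9 of these 28 members (32.1%), against 0.137% of 27025 gene symbols. The related ERSE-II, searched as ATTGG and CCACG with 1 base of any kind between them, was present in 2 of 28 (7.14%, against 0.0444% of symbols). Neither TGACGTGG (the core bound by Xbp1) nor TGATGNAAT (the composite bound with ATF4) was found in these windows of the members, against 0.714% and 1.08% of symbols. ERSE and ERSE-II share the letters CCACG and, read on the opposite strand, CCAAT, and TGACGTGG also holds CCACG on its opposite strand. Since several members are known as targets through this element, its share among them gives no separate support for the set. The matches are shown with the fixed letters of the element in capitals, 5′ to 3′ on the strand given.
Hspa5: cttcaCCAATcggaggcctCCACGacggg
Hsp90b1: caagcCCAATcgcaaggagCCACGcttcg
Hsp90b1: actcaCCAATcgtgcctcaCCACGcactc
Pdia6: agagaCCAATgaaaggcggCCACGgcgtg
Calr: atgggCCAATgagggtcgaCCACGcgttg
Canx: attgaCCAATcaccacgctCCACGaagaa
Dnajc3: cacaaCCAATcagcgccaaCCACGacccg
Creld2: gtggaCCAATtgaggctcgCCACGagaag
Syvn1: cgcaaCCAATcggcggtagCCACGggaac
Derl3: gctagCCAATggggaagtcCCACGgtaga
Herpud1: cgggcgctgATTGGgCCACGttggacact
Dnajb11: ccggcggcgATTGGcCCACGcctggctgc

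In GRCm38.p6 the windows lie at chr2:34772020-34772048 (+) for Hspa5, chr10:86705633-86705661 (-) and chr10:86705528-86705556 (+) for Hsp90b1, chr12:17266486-17266514 (+) for Pdia6, chr8:84847070-84847098 (+) for Calr and chr11:50325795-50325823 (-) for Canx. Those of Dnajc3, Creld2, Syvn1 and Derl3 lie at chr14:118937822-118937850 (+), chr15:88819515-88819543 (-), chr19:6046527-6046555 (+) and chr10:75893237-75893265 (-). The ERSE-II windows lie at chr8:94386368-94386396 (+) for Herpud1 and chr16:22857843-22857871 (+) for Dnajb11. The element began 44 bases before the annotated start in Syvn1, 65 bases before it in Hspa5 and 98 bases before it in Pdia6, and 212 bases before it at the farther of the 2 sites of Hsp90b1. The values were mapped to GRCm39 by the authors, so these coordinates apply to the promoters only. Stretches of 100 bases that end 45 bases before the RefSeq start of Pdia6 (chr12:17266445-17266544, +) and 2 bases before that of Mgat2 (chr12:69184057-69184156, +), the members with the smallest adjusted p in liver, are shown with each CCAAT and CCACG, on either strand, in capitals.
Pdia6: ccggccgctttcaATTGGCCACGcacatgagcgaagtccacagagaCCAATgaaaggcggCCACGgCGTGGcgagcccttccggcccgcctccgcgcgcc
Mgat2: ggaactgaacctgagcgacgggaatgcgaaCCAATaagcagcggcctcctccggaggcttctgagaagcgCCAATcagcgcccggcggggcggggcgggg
Pdia6 held 2 CCAAT and 3 CCACG in this stretch, and Mgat2 held 2 CCAAT and 0 CCACG.

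Summed FPKM was 518967 to 552993 per liver library and 495273 to 662489 per kidney library. All 8 hepatocyte markers were at 1 FPKM or more in every liver library, and all 8 proximal tubule markers in every kidney library. Liver semaglutide 2, liver control 3 and kidney control 1 stood apart, with median correlations to the other libraries of their tissue of 0.900, 0.939 and 0.910, against 0.976 to 0.983 for the other liver libraries and 0.959 to 0.980 for the other kidney libraries. Liver semaglutide 2 held skeletal muscle markers (sum 12107 FPKM, at most 1.85 in any other liver library) and the lowest hepatocyte markers, and was also the highest liver library for adipocyte (2211 FPKM) and erythroid markers (3176 FPKM), with 384 FPKM of macrophage markers. Liver control 3 held 478 FPKM of macrophage and 406 FPKM of neutrophil markers. Kidney control 1 held 1495 FPKM of plasma cell markers (6 of the 6 found in the table at 1 FPKM or more, 23.0 to 43.5 FPKM in the other kidney libraries) and 3541 FPKM of macrophage markers (30.1 to 114 FPKM in the others). In bulk tissue, fewer cells of a type and less RNA per cell cannot be told apart.

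In liver, levels of most members were lower with the combined treatment than in controls, though few passed the test. Of the 31 tested members, 28 had a log2 change below 0 in combined against control libraries, where 39.2% of all 10348 tested genes did, and the median change was -0.31 over the members and 0.05 over all genes. Changes are in log2(FPKM + 1), with the standard error after ±, and understate changes of weakly expressed genes. With an adjusted p under 0.05 across all genes (limma, Benjamini-Hochberg) as the threshold, 1 member passed, Mgat2, which was lower, and 0.309% of all genes passed. At an unadjusted p under 0.05, 14 members were lower and 1, Herpud1, was higher, where 4.12% of genes were lower and 8.11% higher. The 14 became 5 without control 3, 6 without combined 3, 7 without combined 2, 6 without both liver libraries that stood apart and 5 without mitochondrial transcripts. The shares of all genes lower at that threshold under these alternatives are not given here. Without liver semaglutide 2 and control 3, 26 of 31 members were below 0 (42.5% of genes), the medians were -0.23 and 0.04, and Edem1 and Mgat2 passed, where 3.07% of all genes did. The direction of the median was the same under median-ratio scaling (-0.39) and with mitochondrial transcripts removed (-0.19). The hepatocyte markers summed to 43173, 41844 and 46552 FPKM in combined livers and to 39011, 28696 and 25151 FPKM in control livers, all controls lying below all combined libraries. The sum was mostly Alb (28701, 28542 and 31189 FPKM against 27487, 15328 and 8822 FPKM), and the markers did not move alike. Alb, Ttr and Cyp2e1 were lower in all control than in all combined livers, Serpina1c was higher in all, and Apoa1, Ahsg, Fgb and Apob overlapped. Plasma cell markers summed to 125, 129 and 104 FPKM in combined livers and to 198, 206 and 214 FPKM in control livers, again without overlap. That gap was mostly Sdc1, at 70.3, 76.1 and 64 FPKM in combined and 147, 158 and 156 FPKM in control livers. Jchain (0.65, 0.796 and 0.906 FPKM against 0.421, 0.306 and 1.02 FPKM) and Txndc5 overlapped, so the sum does not show a difference in plasma cells. The part of cell type differences in the members' levels was not tested.

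**Figure D1:**
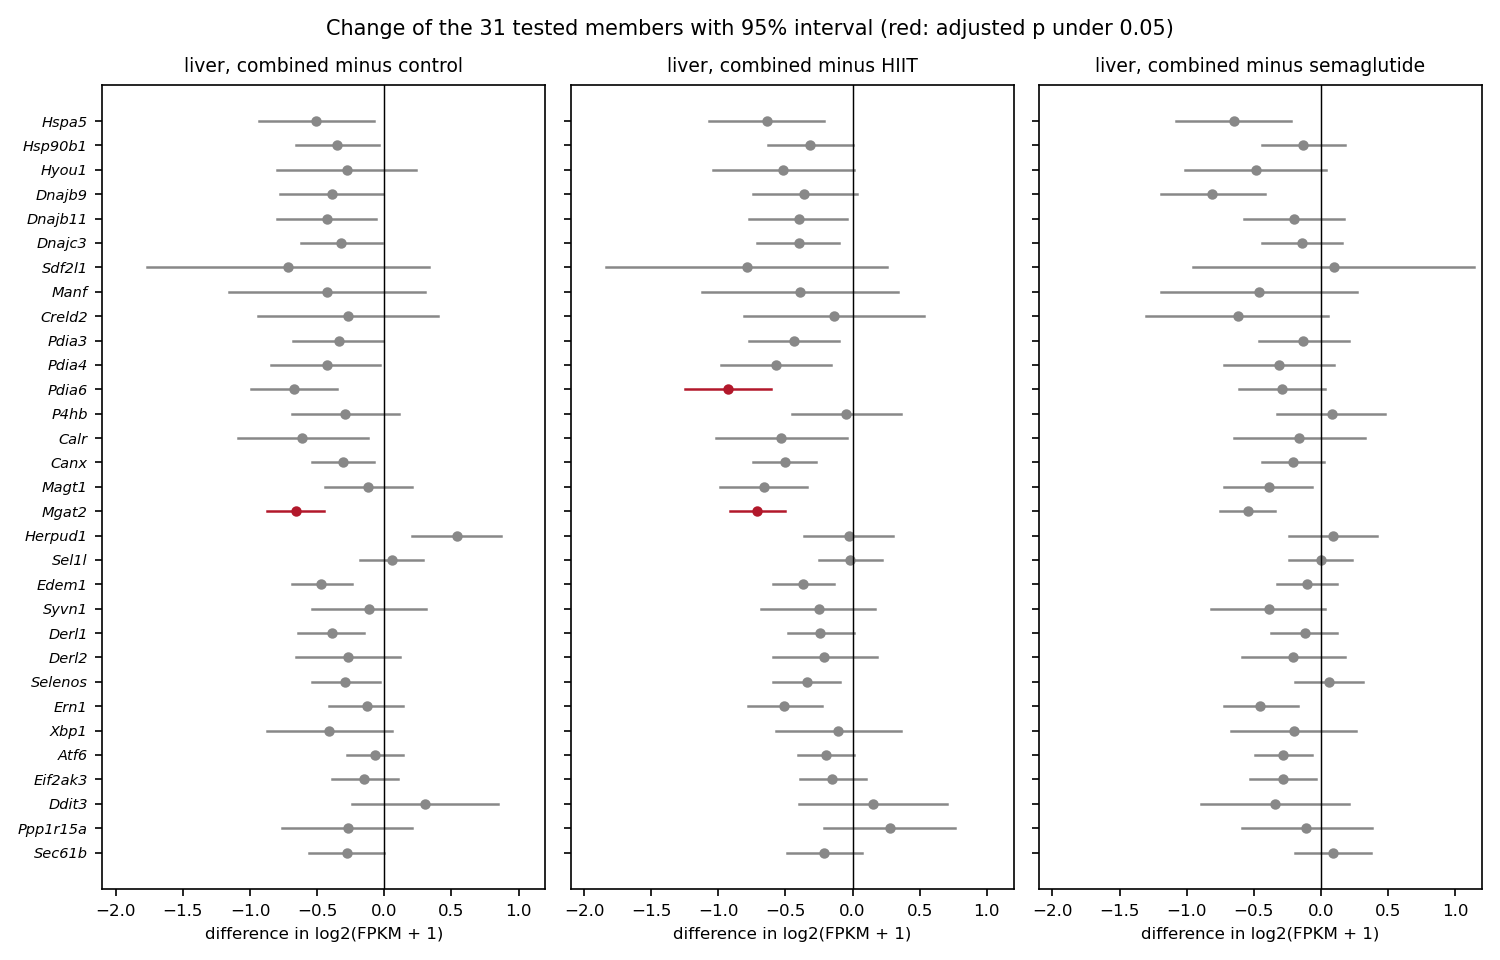
Difference in log2(FPKM + 1) between liver groups for the 31 tested members, in role order, with 95% intervals from limma; red marks an adjusted p under 0.05. In combined minus control 28 of 31 points lie left of 0, in combined minus HIIT 29, and in combined minus semaglutide 26. All panels share the combined libraries.

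Mgat2, a Golgi glycosyltransferase that starts the second branch of complex N-glycans, had 8.65, 8.58 and 7.61 FPKM in combined livers and 11.6, 13.2 and 12.8 FPKM in semaglutide livers. HIIT livers had 13.2, 14.9 and 14.3 FPKM, and control livers had 13.2, 13.6 and 14.2 FPKM. All 3 combined libraries lay below all 9 others, with no overlap. Mgat2 fell by 0.66 ± 0.09 in combined against control livers (limma adjusted p = 0.0238, lower in 3 of 3 libraries) and by 0.71 ± 0.09 in combined against HIIT livers (limma adjusted p = 0.0227). Against semaglutide alone its change was -0.54 ± 0.09 (limma adjusted p = 0.181), which did not pass. The combined against control call was lost without HIIT 3, control 2, control 3 or any 1 of the combined libraries (0 members each). Without control 1 or semaglutide 2 there were 2 and 3 members. The shares of all genes that passed in these reduced fits are not given here. Mgat2 overlaps a gene on the opposite strand (Gm49383, in the annotation of GRCm38), and the strand setting of the counting was not given, so its level is uncertain to that extent. The same holds for Pdia6 (with Atp6v1c2) and Herpud1 (with Gm15890). Of the 31 members, 4 (Hspa5, Pdia6, Canx and Mgat2) had every combined library below every other liver library, where 0.763% of genes did.

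Pdia6, a disulfide isomerase that also acts on the sensors, had 46.6, 39 and 40.8 FPKM in combined livers and 52.1, 48 and 54.8 FPKM in semaglutide livers. HIIT livers had 89.9, 66.8 and 88 FPKM and control livers 60.4, 64.6 and 78.1 FPKM. The 6 libraries with semaglutide lay below the 6 without it. Taking both semaglutide groups against both groups without it (the semaglutide main effect), Pdia6 fell by 0.65 ± 0.10 (limma adjusted p = 0.0135), Mgat2 by 0.41 ± 0.07 (limma adjusted p = 0.0146) and Edem1 by 0.37 ± 0.07 (limma adjusted p = 0.0312). These were 3 of 31 members, where 2.01% of all genes passed. In that contrast 14 members were lower at an unadjusted p under 0.05 (7.67% of genes) and 1 was higher, Ddit3 (9.8% of genes), and 23 of 31 were below 0 (38.5% of genes). Without the 2 libraries that stood apart, Selenos passed too, making 4 (7.38% of genes). Without HIIT 3, 0 members passed (the share of all genes is not given here).

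Edem1, a lectin of the ER that hands misfolded glycoproteins to degradation, had 16.8, 18 and 16.9 FPKM in combined livers and 20, 16.5 and 19.4 FPKM in semaglutide livers. HIIT livers had 22.6, 21.8 and 23.1 FPKM and control livers 22.8, 23.3 and 26.6 FPKM. The 6 semaglutide-treated livers again lay below the 6 others, and the combined and semaglutide groups overlapped. Its change in combined against control livers was -0.47 ± 0.10 (limma adjusted p = 0.101). Over the 12 livers Sel1l, the adaptor of the ligase Syvn1, ranged from 17.9 to 22.1 FPKM, Syvn1 from 13.8 to 24.9 FPKM and Derl2 from 18.0 to 29.2 FPKM. Derl1, a derlin of the retrotranslocation channel, had a change of -0.39 ± 0.11 in combined against control livers (limma adjusted p = 0.179) with no overlap. Derl1 was at 32.1, 31.7 and 27.5 FPKM in combined livers and 36.1, 39.6 and 45.5 FPKM in control livers.

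**Figure D2:**
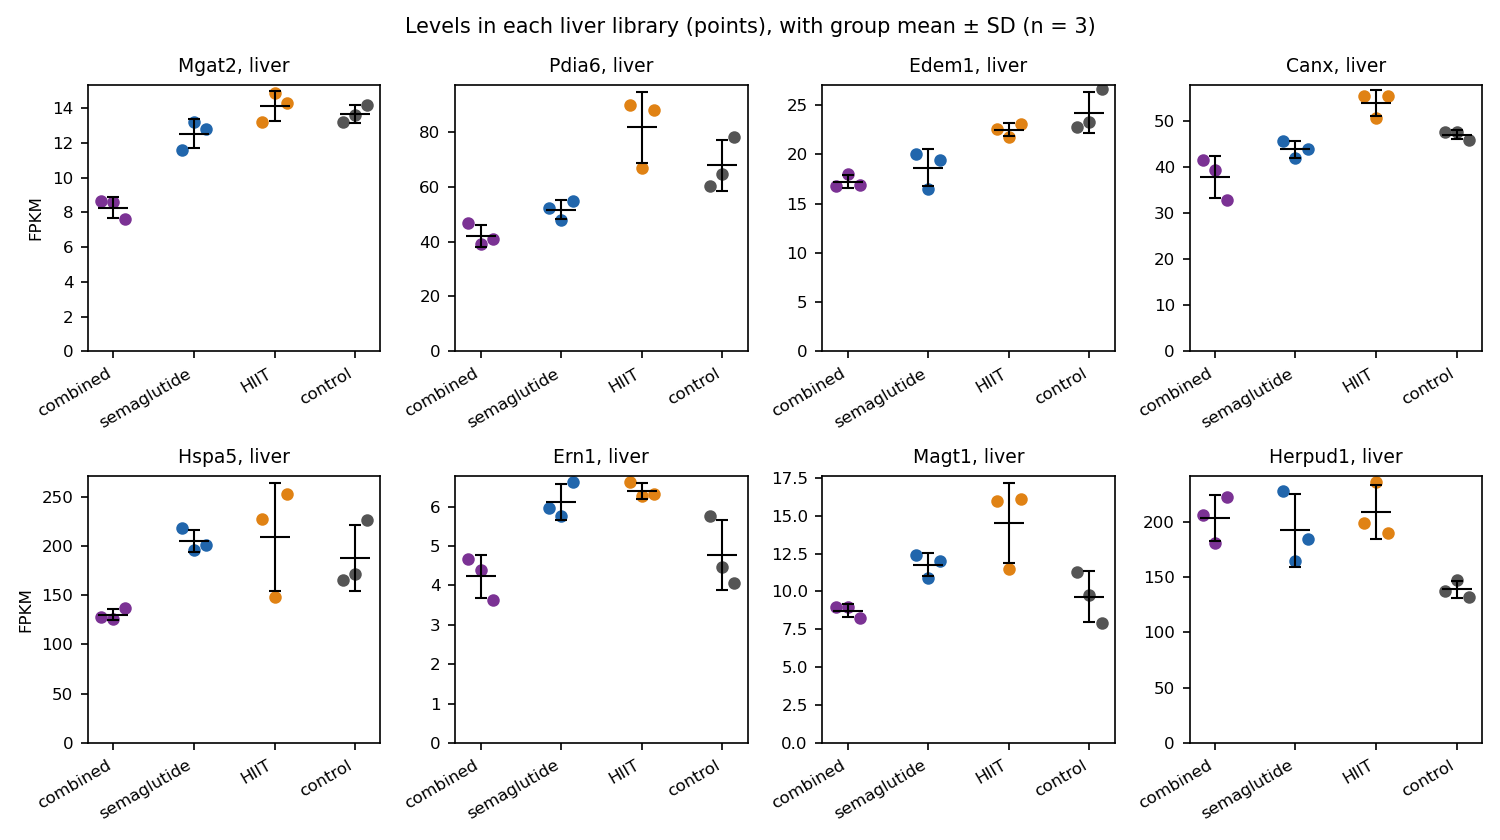
FPKM of 8 members in each liver library (points) by group, with the group mean and SD (n = 3). Combined libraries of Mgat2, Pdia6, Canx and Hspa5 lie below all others, and control libraries of Herpud1 lie below all others at 137, 147 and 132 FPKM.

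All 9 chaperones and partners had a change below 0 in combined against control livers, from -0.72 to -0.27 with a median of -0.39, and 5 of them reached an unadjusted p under 0.05, where 4.12% of genes did as lower. Hspa5 (BiP), the main ER chaperone and the sensors' partner, had 128, 126 and 137 FPKM in combined livers and 218, 196 and 201 FPKM in semaglutide livers. HIIT livers had 227, 148 and 253 FPKM, and control livers 165, 171 and 226 FPKM. The combined libraries lay below all others, while HIIT and control overlapped. Hspa5 changed by -0.51 ± 0.19 against control (limma adjusted p = 0.316) and by -0.65 ± 0.19 against semaglutide (limma adjusted p = 0.449), so neither difference passed. Hsp90b1 (GRP94), a chaperone of secreted and membrane proteins, had 141, 146 and 148 FPKM in combined livers and 167, 183 and 206 FPKM in control livers, with no overlap (change -0.35 ± 0.14, limma adjusted p = 0.344). Sdf2l1, a partner of the Hspa5 complex, was the most variable tested member in liver, at 5.37, 3.6 and 3.25 FPKM in combined livers and 4.15, 4.91 and 17.4 FPKM in control livers, where the highest value was that of control 3. Its groups overlapped (change -0.72 ± 0.48, and -0.14 without control 3).

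The other chaperones ranged, over the 12 liver libraries, from 14.4 to 31.4 FPKM for Hyou1 (an exchange factor of Hspa5), 13.0 to 27.2 for Dnajb9 and 25.9 to 49.3 for Dnajb11 (J-domain partners of Hspa5), 19.7 to 32.5 for Dnajc3 (another such partner), 19.3 to 63.3 for Manf (a stress-induced ER-resident factor) and 8.69 to 22.5 for Creld2 (also stress-induced). Control 3 held the highest liver level of 11 of the 32 members and HIIT 3 that of 9, where they held the highest level of 9.15% and 5.9% of tested genes. Combined 3 held the lowest level of 12 members and combined 2 of 6, where they held that of 14.2% and 2.53% of tested genes.

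The 4 oxidative folding enzymes were all below 0 in combined against control livers (-0.67 to -0.29). P4hb, the most abundant member in liver at 334 to 577 FPKM, and Pdia3 (75.5 to 126 FPKM) and Pdia4 (37.8 to 76.0 FPKM), like Pdia6, belong to the protein disulfide isomerase family. Of the lectin cycle, Calr (calreticulin) had 254, 215 and 232 FPKM in combined livers and 264, 340 and 499 FPKM in control livers, without overlap (change -0.61 ± 0.22, limma adjusted p = 0.286, and -0.36 without control 3). Canx (calnexin), its membrane-bound counterpart, had 41.6, 39.4 and 32.8 FPKM in combined livers and 45.7, 42.1 and 43.9 FPKM in semaglutide livers. HIIT livers had 55.6, 50.7 and 55.6 FPKM and control livers 47.7, 47.6 and 46 FPKM. Canx was thus lowest in all combined and highest in all HIIT libraries, the second as for 1.99% of genes. Its change was -0.31 ± 0.11 in combined against control livers (limma adjusted p = 0.247) and -0.50 ± 0.11 in combined against HIIT livers (limma adjusted p = 0.114). Of the 8 tested members with an ERSE, 8 were below 0 in combined against control livers (median -0.33), and of the 19 without one 16 were (median -0.29).

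The 6 sensors and signalling factors had a median change of -0.14 in combined against control livers, and 0 of them reached an unadjusted p under 0.05. Ern1, the kinase and RNase that splices Xbp1, had 4.68, 4.38 and 3.63 FPKM in combined livers and 5.96, 5.77 and 6.63 FPKM in semaglutide livers. HIIT livers had 6.63, 6.26 and 6.32 FPKM, and control livers 5.76, 4.48 and 4.06 FPKM. Each single treatment lay above the combined treatment without overlap, and combined and control livers overlapped. The changes of Ern1 were -0.45 ± 0.12 against semaglutide, -0.51 ± 0.12 against HIIT (limma adjusted p = 0.43 and 0.141) and -0.13 against control. Xbp1, the factor that carries the IRE1 signal, ranged from 53.4 to 68.7 FPKM in combined livers and from 56.8 to 109 FPKM in control livers (change -0.41 ± 0.21, limma adjusted p = 0.487, and -0.20 without control 3). Which of its transcripts is the spliced form was not analysed here. Ddit3 had 8.88, 5.68 and 6.77 FPKM in combined livers, 8.32, 13.7 and 6.54 FPKM in semaglutide livers, 7.61, 5.27 and 5.93 FPKM in HIIT livers, and 4.56, 5.13 and 6.98 FPKM in control livers. The groups overlapped, and the highest value was that of semaglutide 2, the library with muscle markers. Over all liver libraries Atf6 ranged from 5.82 to 8.34 FPKM, Eif2ak3 from 2.09 to 3.38 FPKM, and Ppp1r15a, which lifts the block on translation set by Eif2ak3, from 3.56 to 7.98 FPKM.

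Herpud1, a stress-induced scaffold of the degradation complex, was 1 of 3 members above 0 in combined against control livers, with Sel1l and Ddit3, and the only 1 of them with an unadjusted p under 0.05. Combined livers had 206, 181 and 222 FPKM and semaglutide livers 228, 164 and 184 FPKM. HIIT livers had 199, 236 and 190 FPKM and control livers 137, 147 and 132 FPKM. All 3 control libraries lay below all 9 treated ones, as for 1.45% of genes, and the treated groups overlapped. The change against control was 0.54 ± 0.15 in combined livers (limma adjusted p = 0.169), 0.45 ± 0.15 in semaglutide livers (limma adjusted p = 0.193) and 0.58 ± 0.15 in HIIT livers (limma adjusted p = 0.676), none of which passed. These comparisons share their controls. Both main transcripts of Herpud1 were in the same order, at 141 ± 15.9 and 61.7 ± 4.84 FPKM in combined livers and 94.4 ± 3.64 and 44.1 ± 4.20 FPKM in control livers (SD, n = 3).

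In semaglutide against control livers 0 of 31 members passed with limma, where 0.715% of genes did; at an unadjusted p under 0.05, 5 were lower (6.47% of genes) and 4 higher (8.79%). The median was -0.12 over members and 0.09 over all genes. Without semaglutide 2 and control 3, 0 members passed (0.593% of genes), 2 were lower at an unadjusted p under 0.05, and both medians were -0.04. The share of all genes lower at that threshold in this reduced fit is not given here. With all libraries the 5 were Edem1 (-0.36 ± 0.10), Selenos, a selenoprotein of the degradation complex (-0.35 ± 0.11), Sec61b, a subunit of the translocon (-0.36 ± 0.13), Pdia6 (-0.38 ± 0.15) and Derl1 (-0.27 ± 0.11). The 4 were Herpud1, Dnajb9 (0.41 ± 0.17), Ern1 (0.31 ± 0.12) and Ddit3 (0.64 ± 0.25). Dnajb9 had 27.2, 24.5 and 23.6 FPKM in semaglutide livers and 13.7, 22.2 and 20.8 FPKM in control livers. All 3 semaglutide libraries lay above every other liver library for Dnajb9, as for 0.957% of genes.

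In HIIT against control livers 0 of 31 members passed with limma, where 0% of genes did, and 13 of 31 were below 0 (39.9% of genes). At an unadjusted p under 0.05, 3 were higher (Herpud1, Magt1 and Ern1, where 4.48% of genes were) and Ppp1r15a was lower (-0.55 ± 0.22, where 2.73% of genes were). Magt1, a subunit of the oligosaccharyltransferase, had 16, 11.5 and 16.1 FPKM in HIIT livers and 11.3, 9.74 and 7.92 FPKM in control livers, without overlap. Its change was 0.54 ± 0.15 (limma adjusted p = 0.676). The level of Magt1 is a sum of 5 rows of the liver table, whose larger transcripts did not move alike. The most abundant one averaged 5.14 ± 1.31 FPKM in HIIT livers and 6.91 ± 3.45 FPKM in control livers, against 4.32 ± 1.90 and 0.741 ± 0.977 FPKM for another (SD, n = 3), and with the most abundant one alone the change was -0.27.

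Set against HIIT alone, most members were also lower in combined livers, but every comparison of the combined treatment uses the same combined libraries. In combined against HIIT livers 2 of 31 members passed, where 0.116% of genes did: Mgat2, given above, and Pdia6, which fell by 0.93 ± 0.15 (limma adjusted p = 0.0483). 29 of 31 members were below 0 (46.6% of genes), 14 were lower at an unadjusted p under 0.05 (5.75% of genes) and 19 had no overlap between groups (14.5% of genes), and the median was -0.36 over members and 0.02 over all genes. All 4 lectin and glycosylation genes were among the 14 (-0.71 to -0.50). For Magt1 this holds for the sum of its transcripts only. Its most abundant transcript averaged 5.31 ± 2 FPKM in combined and 5.14 ± 1.31 FPKM in HIIT livers (SD). Without the 2 libraries that stood apart, which belong to neither of these groups but enter the shared estimate of the spread, 9 members passed, where 7.63% of all genes did: Calr, Canx, Edem1, Ern1, Magt1, Mgat2, Pdia3, Pdia4 and Pdia6. Without HIIT 2, HIIT 3, control 2 or any 1 of the combined libraries 0 members passed, and without semaglutide 2 there were 3. The shares of all genes in these fits are not given here.

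In combined against semaglutide livers 0 of 31 passed with limma (0% of genes), 26 were below 0 (54.8% of genes), 7 were lower at an unadjusted p under 0.05 (2.56% of genes) and 12 had no overlap (5.31% of genes). Dnajb9 had 15.1, 13 and 13.6 FPKM in combined livers, all below the semaglutide libraries above, a change of -0.81 ± 0.17 (limma adjusted p = 0.311). Averaged over drug, training (the HIIT and combined groups against the others) gave 0 passing members (0% of genes), with Dnajb9 (-0.42 ± 0.12) and Mgat2 (-0.25 ± 0.07) lower at an unadjusted p under 0.05 (1.85% of genes) and Herpud1 (0.33 ± 0.11) higher (5.32% of genes), each with a limma adjusted p of 0.588. The interaction, which asks whether training changed a gene differently with and without semaglutide, also gave 0 members (0.00966% of genes). At an unadjusted p under 0.05, 9 members had a negative interaction (4.06% of genes), among them Magt1 (-0.94 ± 0.21), Ern1 (-0.82 ± 0.18), Hspa5 (-0.78 ± 0.27) and Dnajb9 (-0.77 ± 0.25), with limma adjusted p of 0.396 to 0.535. For Magt1 the value was 0.42 with its most abundant transcript alone.

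Herpud1 differed between the tissues under HIIT. Kidneys of HIIT mice had 71, 85, 128 and 116 FPKM of Herpud1 and control kidneys 203, 205, 172 and 213 FPKM. Combined kidneys had 165, 186, 181 and 136 FPKM and semaglutide kidneys 249, 169, 299 and 152 FPKM. All 4 HIIT kidneys lay below the 12 others, as for 0.139% of genes, whereas the HIIT livers lay above the control livers. The kidney change of -1.02 ± 0.22 did not pass (unadjusted p = 2.85e-04, limma adjusted p = 0.378). The difference between tissues, liver minus kidney, was 1.59 ± 0.27 (from the limma estimates, adjusted p = 0.0243 over 9505 genes), and Herpud1 was the 1 member of the 2 genes (0.021%) that passed. That call was lost with median-ratio scaling (0 members) and without the libraries that stood apart (0 members), without liver HIIT 2 or control 3, and without kidney HIIT 1, HIIT 2 or any 1 of the kidney controls (0 members each). Without kidney HIIT 4 there were 9, but the share of all genes that passed in that fit is not given here. The 9 can therefore not be read as particular to the members. For semaglutide and for combined treatment 0 members passed (0% and 0.0316% of genes), with Magt1 and Ern1 (0.61 ± 0.26 and 0.36 ± 0.24) and Herpud1 and Mgat2 (0.79 ± 0.27 and -0.47 ± 0.31) at the smallest p. Whether the 2 tissues came from the same mice was not given, and the test treats them as independent.

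**Figure D3:**
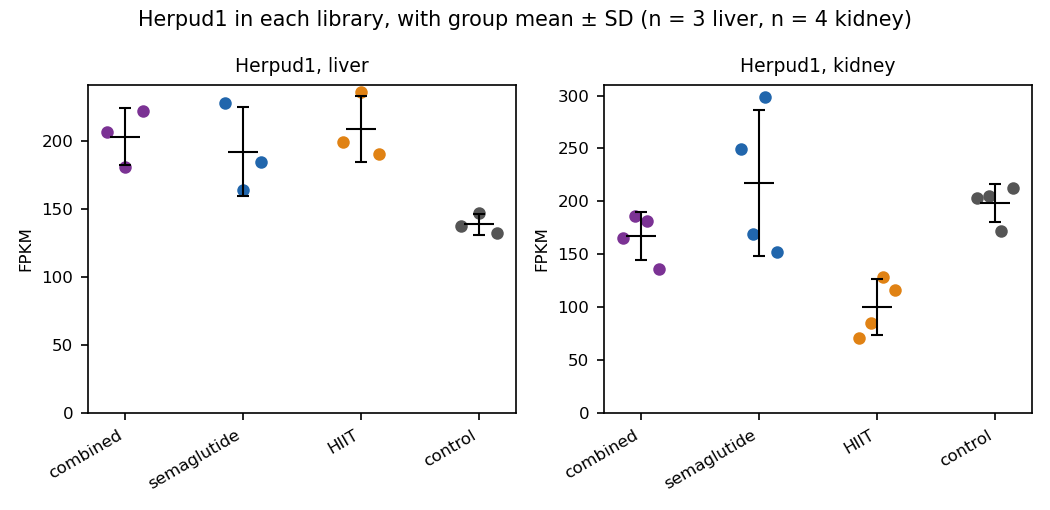
Herpud1 in each liver (left, n = 3 per group) and kidney (right, n = 4 per group) library, with group mean and SD. HIIT livers (190 to 236 FPKM) lie above control livers (132 to 147 FPKM), and HIIT kidneys (71 to 128 FPKM) lie below control kidneys (172 to 213 FPKM).

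In kidney no member passed in any of the 8 contrasts with limma. Kidney levels ranged from 146 to 356 FPKM for Calr, 128 to 233 FPKM for P4hb and 71 to 299 FPKM for Herpud1 down to 1.09 to 3.78 FPKM for Ern1, and in liver from P4hb and Calr (213 to 499 FPKM) down to Eif2ak3 among the tested members. Libraries of neighbours in these orders overlapped, except between Hsp90b1 and Pdia3 and between Ppp1r15a and Eif2ak3 in liver. In HIIT against control kidneys, 31 of 31 members were below 0, but so were 85.2% of all 11551 tested genes, and the median was -0.42 over members and -0.26 over all genes. At an unadjusted p under 0.05, 6 members were lower (11.8% of genes) and 0 higher (0.632%), and Herpud1 alone had no overlap (2.77% of genes). HIIT 1 and HIIT 2 had 60.53% and 58.60% of their FPKM in mitochondrial transcripts, against 23.21 to 51.01% in the 14 other kidneys. They held the lowest kidney level of 16 and 10 of the 32 members (of 42.4% and 22.4% of tested genes). The part of the mitochondrial share in the members' changes was not tested. With mitochondrial transcripts removed, 26 of 31 members were below 0 (61.5% of genes), with medians of -0.21 and -0.06. With median-ratio scaling 22 were (51.7% of genes), with medians of -0.15 and -0.01, and without control 1 27 were (78.4% of genes), with medians of -0.22 and -0.19.

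Leaving out HIIT 4, the HIIT kidney with the lowest mitochondrial share (30.34%), 10 members passed as lower in HIIT (Atf6, Canx, Derl1, Dnajb9, Dnajc3, Edem1, Eif2ak3, Herpud1, Mgat2 and Selenos), where 18.5% of all genes passed. Dnajb9 had 5.57, 7.18, 11.9 and 20.5 FPKM in HIIT kidneys and 23.7, 17.4, 16.9 and 16.3 FPKM in control kidneys. Its low values were those of HIIT 1 to 3, and HIIT 4 lay among the controls (change -0.81 ± 0.31, limma adjusted p = 0.378). P4hb (-0.44 ± 0.18), Derl1 (-0.53 ± 0.21), Selenos (-0.59 ± 0.24) and Eif2ak3 (-0.63 ± 0.29) had the same adjusted p. Hspa5 (-0.23 ± 0.31), Hsp90b1 (-0.29 ± 0.28) and Ddit3 (-0.03 ± 0.20) lay closer to 0, and each was above 0 under median-ratio scaling (0.08, 0.01 and 0.26).

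**Figure D4:**
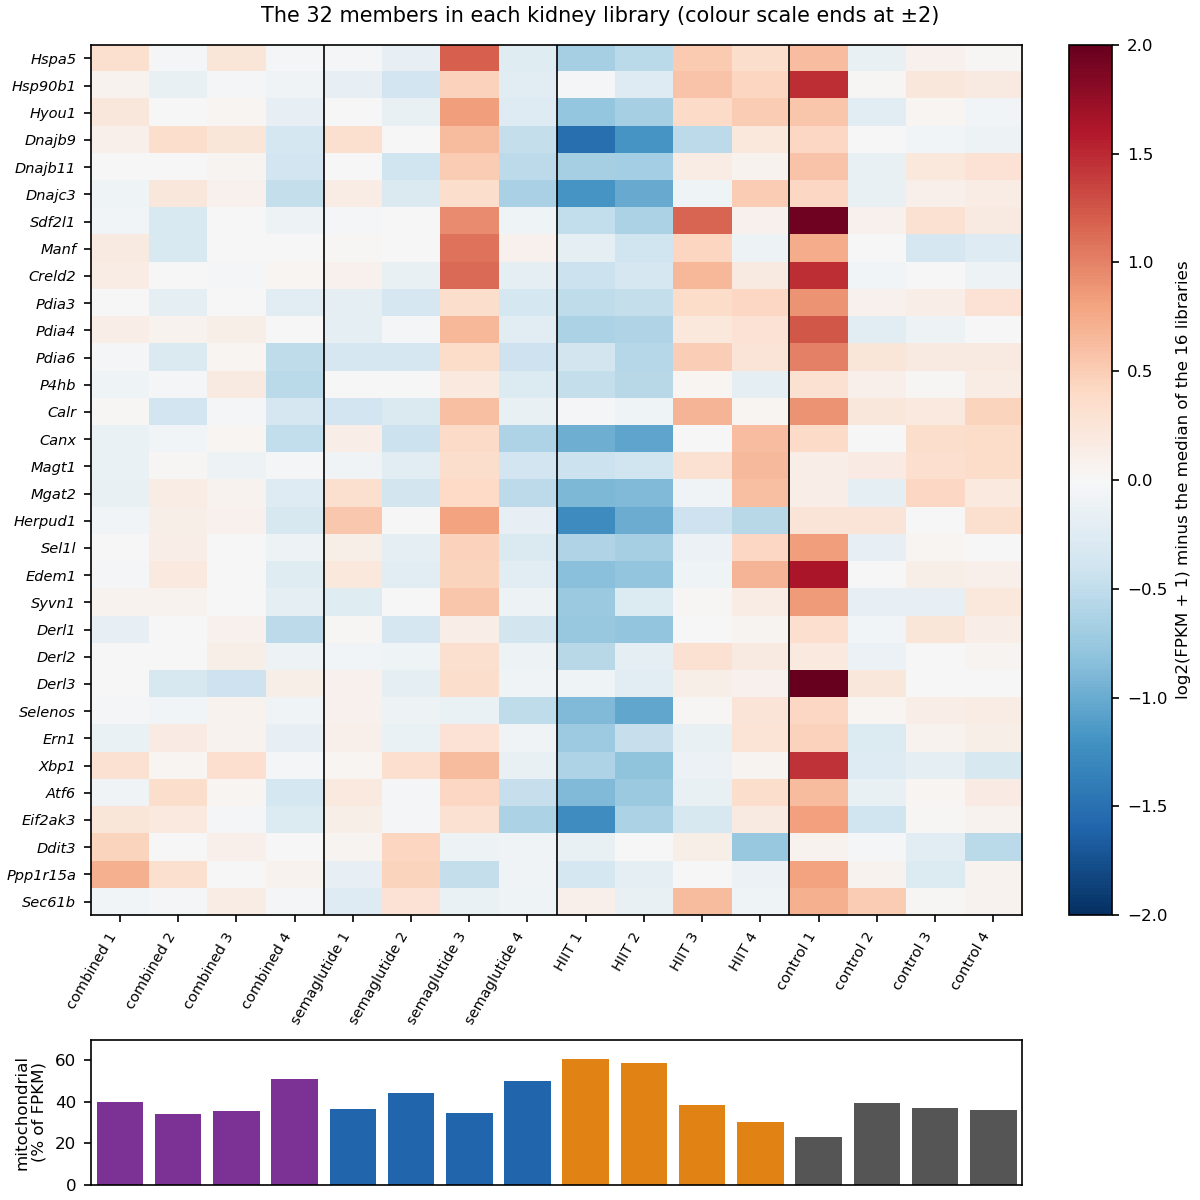
Top: log2(FPKM + 1) of the 32 members in each kidney library minus the gene's median over the 16 libraries. Bottom: share of FPKM in mitochondrial transcripts. HIIT 1 and HIIT 2 (60.53% and 58.60% mitochondrial) are low for most members, control 1 (23.21%) is high for most, and semaglutide 3 is high for the chaperones and for other members, among them Pdia4 and Calr.

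Control 1, the kidney with plasma cell and macrophage markers, held the highest kidney level of 21 of the 32 members (of 37.6% of tested genes). Derl3, a derlin abundant in secretory cells, had 17.1 FPKM there and 0.203 to 1.05 FPKM in the 15 other kidneys. In liver Derl3 had 2.86 FPKM in semaglutide 2, whose plasma cell markers were also the highest of the livers (432 FPKM, 104 to 214 FPKM in the others), and at most 0.292 FPKM elsewhere. Control 1 was also high for Edem1 (23.6 FPKM, against 6.82 to 7.60 FPKM in the other controls), Xbp1 (135 FPKM, against 38.6 to 42.6 FPKM) and Sdf2l1 (25.5 FPKM, against 6.23 to 7.49 FPKM). The part of the marker cells in these levels was not tested.

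Semaglutide and combined treatment were each set against control in kidney. In semaglutide against control kidneys 0 members passed (0.00866% of genes), 24 were below 0 (79.4% of genes), and 2, Pdia6 (-0.58 ± 0.26) and Calr (-0.50 ± 0.23), were lower at an unadjusted p under 0.05 (2.66% of genes). In combined against control kidneys 0 passed (0% of genes), 28 were below 0 (68.3% of genes), and the same 2 genes were lower at that threshold (-0.61 ± 0.26 and -0.62 ± 0.23, where 1.63% of genes were). Pdia6 had 45.5, 37.8, 47.7 and 32.4 FPKM in combined kidneys, 36.7, 36.6, 60.4 and 34.8 FPKM in semaglutide kidneys, and 95.2, 55.5, 52.7 and 52.9 FPKM in control kidneys. Combined kidneys lay below the controls, and semaglutide kidneys overlapped them through semaglutide 3. These 2 comparisons share their controls. Without control 1, 15 and 17 of 31 members were below 0, where 66.4% and 52.7% of genes were. In that fit 0 members had an unadjusted p under 0.05 and a lower level in either comparison. The shares of all genes that did are not given here.

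Kidney semaglutide 3 differed from the rest of its group for several chaperones and for members of other roles. It had 238 FPKM of Hspa5, against 87.5 to 101 FPKM in the other 3, and 49.7 FPKM of Manf, against 22.8 to 24.4 FPKM. Calr was at 289 FPKM there, against 146 to 171 FPKM, and Pdia4 at 44.7 FPKM, against 23.5 to 27 FPKM. This library also had the highest level of its group for Dnajb9 and Dnajc3, but by less. The next sentences are on the same library. It held the highest kidney level of 6 members (of 4.83% of tested genes). Its plasma cell markers summed to 31.6 FPKM, within the range of the other kidneys. Combined against HIIT kidneys gave 0 passing members (0.00866% of genes) and 24 of 31 above 0 (80.7% of genes), with 2 higher at an unadjusted p under 0.05 (5.53% of genes), Herpud1 (0.77 ± 0.22, without overlap, limma adjusted p = 0.717) and Dnajb9 (0.83 ± 0.31, limma adjusted p = 0.785). Combined against semaglutide kidneys, the main effects and the interaction gave 0 members too (0.00866%, 0.0173%, 0% and 0% of genes), with 0, 3, 2 and 2 members at an unadjusted p under 0.05 (1.14%, 4.65%, 3.87% and 3.95% of genes). Averaged over drug, Herpud1 had a training effect of -0.67 ± 0.16 in kidney (unadjusted p = 5.19e-04, limma adjusted p = 0.545), and averaged over training a semaglutide effect of 0.42 ± 0.16 (limma adjusted p = 0.797).

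The 7 further ER lists (139 genes, 131 tested in liver and 129 in kidney) gave 0 passing genes with limma in each treatment against control in either tissue. In combined against control livers, 23 of these 131 genes were lower and 4 higher at an unadjusted p under 0.05 (4.12% and 8.11% of all genes), and 82 were below 0 (39.2% of all genes), with a median of -0.07 against 0.05 over all genes. The list of the translocon, signal peptidase and oligosaccharyltransferase had 22 of 25 below 0 (median -0.21, 10 lower at that p), and other oxidative folding enzymes 12 of 17 (median -0.13, 5 lower). The glucosidases, lectins and mannosidases had 9 of 13 below 0 (median -0.12), other ER-associated degradation 14 of 19 (median -0.09), COPII export 10 of 20 (median -0.01), other chaperones and prolyl isomerases 7 of 18 (median 0.06) and other sensors and stress transcription factors 8 of 19 (median 0.03). For the semaglutide main effect in liver 3 of the 131 genes fell and 1 rose, where 2.01% of all genes passed. Stt3a, a catalytic subunit of the oligosaccharyltransferase, averaged 8.75 ± 0.987 FPKM in combined, 9.69 ± 0.202 in semaglutide, 12.9 ± 1.42 in HIIT and 12.8 ± 1.01 in control livers (SD, n = 3 each), and fell by 0.44 ± 0.08 (limma adjusted p = 0.0232). Lman2, a cargo lectin, fell by 0.35 ± 0.07 (limma adjusted p = 0.0284) and Tmx2, a membrane thioredoxin-like protein, by 0.51 ± 0.11 (limma adjusted p = 0.0461), while Fkbp14, a prolyl isomerase, rose by 0.38 ± 0.08 (limma adjusted p = 0.0422).

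In combined against control livers the named genes of these lists included Spcs2 of the signal peptidase (-0.67 ± 0.18), Pdia5 (-0.71 ± 0.22), Hspa13 (-0.50 ± 0.13) and Lman1 (-0.39 ± 0.14), with Tor1a (0.72 ± 0.18) above 0, and limma adjusted p of 0.136 to 0.29. In HIIT against control livers Qsox1, a sulfhydryl oxidase, had -0.92 ± 0.28, with 146 ± 7.93 FPKM in HIIT livers and 294 ± 111 FPKM in control livers (limma adjusted p = 0.676). In HIIT against control kidneys 32 of 129 genes were lower and 0 higher at an unadjusted p under 0.05 (11.8% and 0.632% of all genes), and 124 were below 0 (85.2% of all genes), with Ddit4, a stress-induced inhibitor of mTORC1, at -1.33 ± 0.36 and Wfs1, an ER membrane protein, at -1.04 ± 0.36 (limma adjusted p = 0.378 each).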

How the data were processed

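RNA was measured by stranded poly(A) sequencing (paired-end, NovaSeq) in 12 liver and 16 kidney libraries. The deposited values are FPKM made by the authors. Per the submitters' processing notes, the build was GRCm39 and the tools were StringTie 2.1.4, featureCounts 2.0.1, STAR 2.7.9a, Trimmomatic 0.36, FastQC and CASAVA, with no role for each. The strand setting of the counting was not stated. FPKM carry no read depth, so no count test was run.

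Liver transcripts were summed per gene name. Genes that reached 1 FPKM in 3 or more liver or 4 or more kidney libraries were tested as log2(FPKM + 1) with limma 3.58.1 (R 4.3.3, trended variance), 4 groups in one fit per tissue, with Benjamini-Hochberg adjustment over all genes of a comparison. The 8 contrasts were each treatment against control, combined against each single treatment, both main effects and the interaction. Differences between tissues used the standard errors of both fits, with Satterthwaite degrees of freedom. FPKM are shares of a library, so a few abundant genes or mitochondrial transcripts can shift all others, and alternatives addressed this. Tested on simulated data for semaglutide against control, the fit recovered 73% of liver genes and 66% of kidney genes changed by a log2 of 1. It gave 12 and 11 false calls among 10348 and 11551 genes. The simulated noise was independent between genes, so shifts of a whole library were not part of it. Smaller changes, as most of the members showed, were not simulated, so their recovery is unknown.

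Named genes were members with an adjusted p under 0.05, up to 6 per direction with the smallest unadjusted p under 0.05 (or the 2 smallest), 6 fixed members, and by the same thresholds up to 2 genes of each further list. Members and lists were chosen with earlier results of these data known. Promoters were read from RefSeq tables. Figures used matplotlib 3.10.9.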

Additional observations from a re-analysis of the deposited data

Results flagged for a closer look

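Among the kidney groups of 4, 17 member values of the 128 groups tried stood apart from the other libraries of their group by Dixon's criterion. Chance alone gives about 1 in 20 for independent values, but members measured in the same library are not independent. Control 1 gave 8 of the 17 and semaglutide 3 gave 5. The share over all kidney genes is not given here, so no excess particular to the members can be read from this count. Liver groups of 3 were not tested.

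Kidney control 1, the library with plasma cell and macrophage markers, was high for 8 members: Hsp90b1 at 276 FPKM, Sdf2l1 at 25.5, Creld2 at 36.8, Pdia4 at 67, Pdia6 at 95.2, Edem1 at 23.6, Derl3 at 17.1 and Xbp1 at 135 FPKM. Kidney semaglutide 3 was high for 5: Hspa5 at 238 FPKM, Sdf2l1 at 12.2, Manf at 49.7, Pdia6 at 60.4 and Derl2 at 13.2 FPKM. Single values stood apart for Dnajb11 in combined 4 (24.1 FPKM, low), Sec61b in combined 3 (54.1 FPKM, high), Calr in HIIT 3 (305 FPKM, high) and Canx in control 2 (73.6 FPKM, low).

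The HIIT against control change of Herpud1 differed between tissues, by 1.59 (liver minus kidney, log2), with 0.58 in liver and -1.02 in kidney.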

How the results depend on the processing

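Members passing in combined against control livers (1, where 0.309% of all genes passed) numbered 0 with a replicate block (0.029% of genes). They numbered 0 with only the groups compared (0% of genes), 2 without the libraries that stood apart (3.07% of genes), and 0 to 3 leaving out 1 library. In combined against HIIT livers (2, where 0.116% of all genes passed) they numbered 1 without the filter (0.0401% of genes). They numbered 0 with median-ratio scaling (0.0581%), 0 with the replicate block (0.0483%) and 1 without the variance trend (0.0966%). With only the groups compared they numbered 7 (5.64% of genes), and 9 without the libraries that stood apart (7.63% of genes). With the highest transcript they numbered 0 (0.0199%), and 0 to 3 leaving out 1 library. Leaving out 1 library, the semaglutide main effect in liver gave 0 to 4 and HIIT against control kidneys 0 to 10. Members differing between tissues under HIIT numbered 0 with median-ratio scaling, 0 without the libraries that stood apart, and 0 to 9 leaving out 1 library. Except for HIIT against control kidneys without HIIT 4, given above, the shares of all genes leaving out 1 library are not given here. The cause of these differences between settings was not tested. Correlations of same-numbered deviations were -0.31 to 0.16 in liver (median -0.09, against 0.03 for other pairs) and -0.47 to 0.33 in kidney (median 0.08, against -0.02). With so few libraries they cannot tell whether replicate numbers pair the samples, and the labels do not say.

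Of the named changes, 2079 recomputed values kept direction and side of the threshold, 45 lost and 21 gained a call, and 46, none of them called, changed sign. In HIIT against control livers Hsp90b1 was 0.05 without mitochondrial transcripts and 0.05 without the libraries that stood apart (-0.11 to 0.09 leaving out 1), Hspa5 -0.02 to 0.37 and Sdf2l1 -0.27 to 0.65 leaving out 1, and Magt1 -0.27 with its highest transcript, which also gave 0.01 against HIIT and 0.16 against semaglutide in combined livers and 0.42 for the interaction. Xbp1 in semaglutide livers was -0.46 to 0.00 leaving out 1. In HIIT kidneys Hspa5 was 0.08 with median-ratio scaling and 0.01 without mitochondrial transcripts, Hsp90b1 0.01 with the scaling and 0.04 without control 1 (-0.44 to 0.04 leaving out 1), and Ddit3 0.26, 0.19 and 0.05 under these 3 alternatives (-0.15 to 0.15). In semaglutide kidneys Sdf2l1 was 0.02 without control 1 (-0.67 to 0.02 leaving out 1), Hspa5 -0.29 to 0.21, Herpud1 -0.09 to 0.24 and Xbp1 -0.12 to 0.47. In combined kidneys Hspa5 was 0.09, 0.06 and 0.15 under the 3 alternatives (-0.11 to 0.15) and Xbp1 0.10, 0.07 and 0.42 (-0.17 to 0.42).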
